A study of Rattus norvegicus with 31 samples.

Results

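The 10 genes Rcan1, Csrp3, Ankrd1, Xirp1, Xirp2, Fhl1, Acta1, Myh7, Myh7b and Enah encode proteins of the heart muscle cell that are known for their response to load. They were taken by symbol, and chosen with earlier results of these data known. All 10 were among the 19100 RefSeq genes measured in 21 recombinant inbred strains, and 9 were found under their own name alone among the 46063 genes that the authors assembled from their reads, the only gene level table here with both progenitor strains. Myh7b has no assembled gene of its name and is not analysed here in the progenitors. The libraries were made from rRNA-depleted total RNA of left ventricles of untreated, naive male rats, whose age the labels do not give. SHR (SHR/OlaIpcv), the spontaneously hypertensive rat, had 6 libraries, of which 3 carry the number of replicate 4 in different sequencing batches, and BN-Lx (BN-Lx/Cub), a normotensive Brown Norway congenic, had 4 libraries. The HXB family (substrain Ipcv, 12 strains) and the BXH family (substrain Cub, 9 strains) are inbred mosaics of both progenitor genomes from reciprocal crosses, with 1 library per strain, so that a strain and its animal cannot be told apart. No blood pressure or heart weight was used here.

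A heart muscle cell under load builds new sarcomeres and switches on genes that are otherwise most active in the fetal heart or in skeletal muscle. Rcan1 is a feedback inhibitor of the phosphatase calcineurin, which activates the transcription factor NFAT, and NFAT in turn drives a short Rcan1 transcript from an internal start site. Csrp3 (muscle LIM protein) and Fhl1 are LIM domain proteins of the Z-disc and the titin spring, and Ankrd1 (CARP) shuttles between the spring and the nucleus. Xirp1 and Xirp2 are actin-binding Xin repeat proteins of the intercalated disc, and Enah (Mena) promotes the elongation of actin filaments there. Acta1 is skeletal α-actin, Myh7 is the slow β-myosin heavy chain that is dominant in the fetal rodent ventricle, and Myh7b is a related myosin.

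The start regions of 4 members that the results turn on are shown from RefSeq (GRCr8 build), each as the 250 bases before a transcription start, 5′ to 3′. Of the 10 members 8 had such a window, and Csrp3 and Ankrd1 had none. Capitals mark matches, on either strand, to the CArG box of serum response factor, the MEF2 site, the MCAT element of TEAD factors (CATTCC) and the core of the NFAT site (GGAAA). None of the matches shown overlap each other.
Acta1 (chr19:68784195-68784444, minus strand): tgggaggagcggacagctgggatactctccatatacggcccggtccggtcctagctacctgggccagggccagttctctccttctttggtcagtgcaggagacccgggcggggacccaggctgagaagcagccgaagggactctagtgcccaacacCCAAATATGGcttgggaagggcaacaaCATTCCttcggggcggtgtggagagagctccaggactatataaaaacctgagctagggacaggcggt
Rcan1, internal start (chr11:45118237-45118486, minus strand): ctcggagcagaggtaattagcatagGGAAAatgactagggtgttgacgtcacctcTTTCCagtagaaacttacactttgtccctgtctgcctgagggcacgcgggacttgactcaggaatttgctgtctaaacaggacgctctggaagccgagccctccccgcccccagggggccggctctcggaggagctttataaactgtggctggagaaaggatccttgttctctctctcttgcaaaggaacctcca
Xirp1 (chr8:128635004-128635253, minus strand): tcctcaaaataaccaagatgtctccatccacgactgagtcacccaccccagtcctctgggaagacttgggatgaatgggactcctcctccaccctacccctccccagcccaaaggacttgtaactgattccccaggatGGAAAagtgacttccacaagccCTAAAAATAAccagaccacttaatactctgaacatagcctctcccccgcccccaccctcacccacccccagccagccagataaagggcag
Xirp2 (chr3:72533936-72534185, plus strand): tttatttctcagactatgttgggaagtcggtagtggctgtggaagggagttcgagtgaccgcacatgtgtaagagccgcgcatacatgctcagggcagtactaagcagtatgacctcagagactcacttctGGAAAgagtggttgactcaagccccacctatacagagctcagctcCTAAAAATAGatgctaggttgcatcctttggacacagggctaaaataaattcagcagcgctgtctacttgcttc

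In the Acta1 window the CArG box lay at bases -94 to -85 and the MCAT element at bases -67 to -62, counted back from the start. The MEF2 match lay at bases -90 to -81 in the Xirp1 window and at -74 to -65 in the Xirp2 window. The Rcan1 window held 2 NFAT cores, at bases -225 to -221 and -195 to -191. Of all 33469 RefSeq windows of the same length, 501 held a CArG box, as did 2 of the 12 windows of members. A MEF2 site stood in 2.96% of all windows and 3 of these 12, and the MCAT element in 12.1% and 1 of 12. The NFAT core stood in 56.9% and 6 of 12, so that the last match is common to most start regions. The second CArG box lay in a window of Fhl1, at bases -102 to -93. Another Fhl1 window held 2 NFAT cores, as many as that of Rcan1, and the Myh7 window held 1. The Xirp1 matches are counted in overlapping windows, and a further Xirp1 window and those of Enah and Myh7b held no match. The matches describe these letters and no binding was measured.

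Both progenitors were compared to see which members differ between the hypertensive and the normotensive parent. In SHR, 6 of the 9 members found were higher and none lower, while 7.38% of all assembled genes were called higher, 6.95% lower and 14.3% in either direction (limma, Benjamini-Hochberg adjusted p under 0.05). The median log2 fold change of the 9 members was 0.34 and that of all assembled genes was 0.01. As the members were chosen with earlier results of these data known, these contrasts only describe them. The 6 were Acta1, Rcan1, Ankrd1, Csrp3, Xirp2 and Xirp1, and in each the lowest SHR library lay above the highest BN-Lx library. Such a separation in either direction was found in 20.6% of all assembled genes, and with SHR above BN-Lx in 10.6%. These shares include many genes of low level, since the median gene of a library lay between 3.99 and 4.73, far below the 6. With only genes of a mean of 5 or more tested, 4975 genes were called, the same 6 members among them. The number of genes tested in that setting is not given here, so the 4975 give no share. The share among genes as high as the members was not counted. Fhl1 and the assembled genes that carry the names Myh7 and Enah did not pass. Values are log2 expression levels, and in bulk tissue fewer cells of a type cannot be told apart from less RNA per cell.

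**Figure D1:**
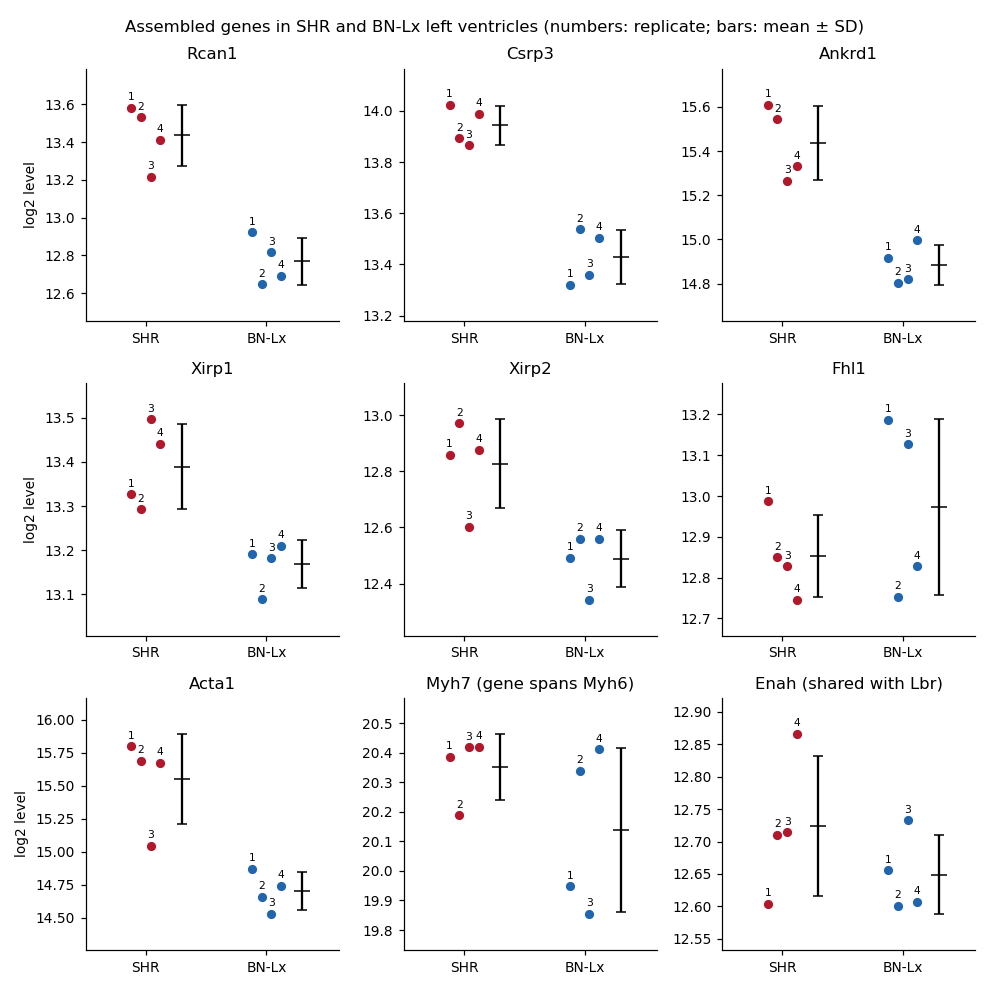
Log2 levels of assembled genes in SHR (left of each panel) and BN-Lx (right), with a numbered point per replicate and a bar for the mean ± SD (n = 4 each). In the panels of Rcan1, Csrp3, Ankrd1, Xirp1, Xirp2 and Acta1 the points of SHR all lie above those of BN-Lx, and in the panels of Fhl1, Myh7 and Enah they overlap.

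Acta1 (chromosome 19, 51883713 to 51886725, minus strand, rn7 build) showed the largest difference of the 9. Its level was 15.80, 15.69, 15.04 and 15.67 in SHR replicates 1 to 4 and 14.87, 14.66, 14.53 and 14.74 in BN-Lx replicates 1 to 4. SHR replicate 3 stood 0.63 below the next SHR library and 0.17 above the highest BN-Lx library. The log2 fold change was 0.85 (SE 0.14, adjusted p = 0.00146 in limma), or 1.80-fold. The level of Actc1, the cardiac α-actin that fills most thin filaments of the adult heart, was 18.63 ± 0.14 in SHR and 18.56 ± 0.13 in BN-Lx (SD, n = 4 each), and it did not pass the test (log2 fold change 0.07, SE 0.09, adjusted p = 0.683). The log2 difference Acta1 minus Actc1 within a library was -3.01, -2.78, -3.53 and -2.99 in SHR and -3.85, -3.80, -4.09 and -3.71 in BN-Lx. This difference was 0.78 higher in SHR (two-sided exact permutation test, p = 0.0286, the smallest that 4 against 4 allows), with an adjusted p of 0.0857 over the 6 ratios tested. Values are not corrected for gene length, so the size of the difference within a library is not a ratio of molecules.

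Rcan1 (chromosome 11, 31622208 to 31702150, minus strand) was 13.58, 13.53, 13.22 and 13.41 in SHR and 12.92, 12.65, 12.82 and 12.69 in BN-Lx. Its log2 fold change was 0.67 (SE 0.09, adjusted p = 0.000362), or 1.59-fold. The gene had 2 assembled transcripts of 4 exons each. The short transcript began at 31632321, and its start lay 10113 bases from the 3′ end of the gene, the same distance as the internal start of the RefSeq window shown above. The long one began at 31702150. The short transcript was 13.58, 13.50, 13.08 and 13.35 in SHR and 12.76, 12.34, 12.60 and 12.41 in BN-Lx, a log2 fold change of 0.85 (SE 0.14, adjusted p = 0.00849). The long transcript was 9.03, 8.50, 8.59 and 8.79 in SHR and 8.61, 8.82, 8.95 and 8.92 in BN-Lx, with overlapping groups and a log2 fold change of -0.10 (SE 0.16, adjusted p = 0.769). The difference short minus long within a library averaged 4.65 ± 0.24 in SHR and 3.70 ± 0.30 in BN-Lx (SD, n = 4 each). All 4 SHR libraries lay above all 4 BN-Lx libraries in this difference (two-sided exact permutation test, p = 0.0286, adjusted p = 0.0857 over the 6 ratios), a test chosen after the transcript values were seen.

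**Figure D2:**
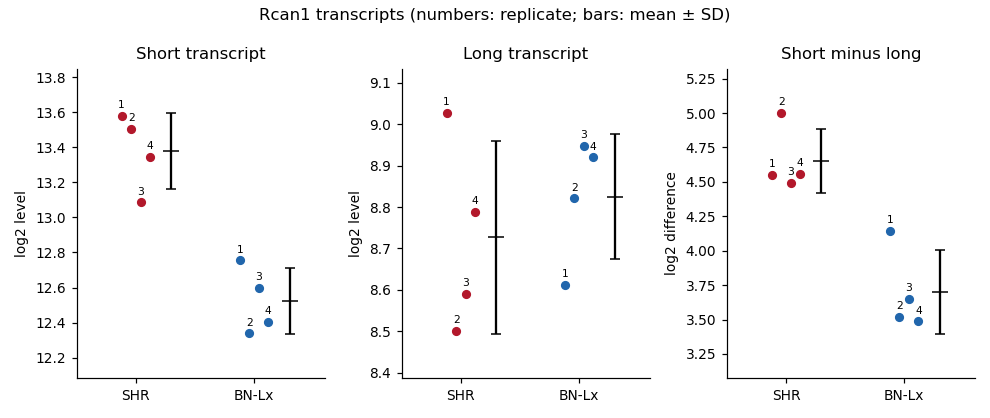
Log2 level of the short and the long Rcan1 transcript, and the difference between them within each library, in SHR (left) and BN-Lx (right), with a numbered point per replicate and a bar for the mean ± SD (n = 4 each). The groups are apart for the short transcript and for the difference, and overlap for the long transcript.

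Ankrd1 (chromosome 1, 233815851 to 233834922, minus strand) was 15.61, 15.54, 15.26 and 15.33 in SHR and 14.92, 14.80, 14.82 and 14.997 in BN-Lx, a log2 fold change of 0.55 (SE 0.08, adjusted p = 0.000935). Of its 6 transcripts, the one with the highest level, of 9 exons, rose by 0.59 (SE 0.11, adjusted p = 0.0193) and a transcript of 10 exons with a farther start rose by 0.81 (SE 0.14, adjusted p = 0.0109). Another, at a mean level of 1.67, fell by 1.95 (SE 0.44, adjusted p = 0.0361), a level far below the mean of 14.97 and 12.08 of the transcripts that rose. Csrp3 (chromosome 1, 98528067 to 98546647, minus strand) was 14.02, 13.89, 13.87 and 13.99 in SHR and 13.32, 13.54, 13.36 and 13.50 in BN-Lx. Its log2 fold change was 0.51 (SE 0.07, adjusted p = 0.000434), and its 1 transcript rose by 0.62 (SE 0.09, adjusted p = 0.00603). Rcan1, Csrp3, Ankrd1 and Acta1 stayed past the threshold under all 17 alternative fits.

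The Xin repeat genes differed less. Xirp2 (chromosome 3, 52126195 to 52213094, plus strand) was 12.86, 12.97, 12.60 and 12.88 in SHR and 12.49, 12.56, 12.34 and 12.56 in BN-Lx, a log2 fold change of 0.34 (SE 0.09, adjusted p = 0.0201). This call was lost without SHR replicate 2 (adjusted p = 0.0668), without SHR replicate 4 (0.0615) without BN-Lx replicate 3 (0.0629), without an intensity trend (0.133) and with all groups in 1 fit (0.252), and none of its 3 transcripts passed. Xirp1 (chromosome 8, 119744778 to 119757547, minus strand) was 13.33, 13.29, 13.50 and 13.44 in SHR and 13.19, 13.09, 13.18 and 13.21 in BN-Lx, a log2 fold change of 0.22 (SE 0.07, adjusted p = 0.0448). It was called in only 4 of the 17 alternative fits, where its adjusted p ran from 0.0313 to 0.308, and of the fits with 1 library left out it was called only without SHR replicate 1. Its transcript of 6 exons, the one with the highest level, rose by 0.48 (SE 0.10, adjusted p = 0.0255).

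Fhl1 (chromosome X, 134555399 to 134614930, plus strand) was 12.99, 12.85, 12.83 and 12.75 in SHR and 13.19, 12.75, 13.13 and 12.83 in BN-Lx, with overlapping groups and a log2 fold change of -0.12 (SE 0.10, adjusted p = 0.460). None of its 11 transcripts passed. The assembled gene with the Enah name alone is a fragment with a log2 fold change of -0.22 (SE 0.27, adjusted p = 0.629). A larger one carries the name Enah together with that of Lbr, the lamin B receptor, and had a log2 fold change of 0.07 (SE 0.07, adjusted p = 0.525). Across the 21 strains the fragment followed RefSeq Enah with Spearman's rho = 0.23 and the larger gene with rho = 0.72.

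The assembled gene named Myh7 (chromosome 15, 28344828 to 28469888, minus strand) covers the neighbouring Myh6, the fast α-myosin heavy chain of the adult rodent ventricle. Its level was 20.39, 20.19, 20.42 and 20.42 in SHR and 19.95, 20.34, 19.85 and 20.41 in BN-Lx, a log2 fold change of 0.21 (SE 0.12, adjusted p = 0.282). Across the 21 strains it followed RefSeq Myh6 (rho = 0.79) more closely than RefSeq Myh7 (rho = 0.36), and 3 transcripts that lie wholly on the Myh6 side held 90.7% to 96.7% of its summed level in the progenitor libraries. Its value is therefore reported for the locus and not for Myh7. The transcript that lies wholly on the Myh7 side, at a mean level of 12.70 over all libraries, followed RefSeq Myh7 with rho = 0.97. The difference between that transcript and the sum on the Myh6 side was -8.07, -7.40, -10.76 and -7.87 in SHR and -6.92, -6.42, -7.51 and -4.29 in BN-Lx. It was lower in SHR on average (difference -2.24, exact permutation p = 0.0571, adjusted p = 0.0857), with overlapping groups and an SD of 1.52 in SHR and 1.40 in BN-Lx. Of 18 further transcripts that join both sides, which hold 3.23% to 5.26% of the level, 1 was called, at a log2 fold change of 1.70 (SE 0.34, adjusted p = 0.0241). The highest of the 18, at a mean level of 14.80, has 37 of its 40 exons on the Myh7 side and followed RefSeq Myh7 with rho = 0.83. It is not part of the difference above, and its own log2 fold change was smaller, at -0.47 (SE 0.26, adjusted p = 0.337). The difference above therefore covers only part of the RNA on the Myh7 side. Over the 8 members with more than a fragment, 52 assembled transcripts were tested, of which 7 rose and 1 fell, while 5.53% of all assembled transcripts were called, 2.72% higher and 2.81% lower. Of the 52, 22 belong to the gene that covers Myh6 and Myh7, as does 1 of the 7 that rose.

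The library of SHR replicate 4 that was made in a later batch gives a measure of how far the same replicate number moved between batches. In it Acta1 was 14.84, 0.84 below the batch 1 library, Rcan1 was 12.86, 0.55 below it, Csrp3 was 13.50, 0.49 below it, Xirp1 was 12.95, 0.49 below it, and Xirp2 was 13.59, 0.71 above it. Ankrd1 differed by 0.03. The strain differences, measured within batch 1 only, were 0.85 for Acta1, 0.67 for Rcan1, 0.51 for Csrp3, 0.22 for Xirp1, 0.34 for Xirp2 and 0.55 for Ankrd1. For Xirp1 and Xirp2 the shift between batches was larger than the strain difference, and for Acta1 and Csrp3 it was nearly as large. The later library lay below the highest BN-Lx library for Acta1 (14.87), Rcan1 (12.92), Csrp3 (13.54) and Xirp1 (13.21). It lay above all BN-Lx libraries for Ankrd1 and Xirp2. Each library was also scored by how far its genes lean along the difference between the later libraries of that replicate. In batch 1 this score ran from -0.11 to 0.31 in SHR and from -0.18 to 0.03 in BN-Lx. With the score as a covariate 5 members were called, all but Xirp1 of the 6, and 4346 genes in all in place of 6603.

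Known partners of the members are read against the 7.38% of all assembled genes called higher and the 6.95% called lower. Of the natriuretic and fetal program partners 4 of 20 rose and 2 fell in SHR, with a median log2 fold change of 0.21. Tgfb2, a growth factor, was 9.13 ± 0.15 in SHR and 8.51 ± 0.07 in BN-Lx (log2 fold change 0.62, SE 0.10, adjusted p = 0.00112), and Acta2, smooth muscle α-actin, rose by 0.58 (SE 0.13, adjusted p = 0.00945). The natriuretic peptide genes, named here after their values were seen, did not pass, at 12.88 ± 0.62 in SHR and 12.39 ± 0.54 in BN-Lx for Nppa (limma adjusted p = 0.289) and 13.17 ± 0.41 in SHR and 12.75 ± 0.16 in BN-Lx for Nppb (limma adjusted p = 0.101). In the calcineurin and NFAT list 4 of 22 rose and 1 fell. Trpc6, a calcium-permeable channel, rose by 0.90 (SE 0.20, adjusted p = 0.00983) and the transcription factor Nfatc2 by 0.59 (SE 0.14, adjusted p = 0.0134).

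Among structural relatives, 2 of 10 LIM and FHL genes rose and 2 fell. Csrp2, the smooth muscle relative of Csrp3, was 7.49 ± 0.18 in SHR and 8.69 ± 0.18 in BN-Lx (log2 fold change -1.21, SE 0.13, adjusted p = 4.59e-05), and Fhl3 fell by 0.75 (SE 0.11, adjusted p = 0.000684). In the list for muscle ankyrin repeat and titin spring stress 1 of 9 rose, Ankrd23, a relative of Ankrd1, by 0.63 (SE 0.10, adjusted p = 0.00112). In that list 1 fell, Ybx1, which is not itself an ankyrin repeat or titin gene, by 0.35 (SE 0.09, adjusted p = 0.0191). In the Z-disc list 5 of 14 rose and 3 fell, among them the intermediate filament gene Synm, which fell by 0.86 (SE 0.10, adjusted p = 9.30e-05), and the chaperone Cryab, which fell by 0.62 (SE 0.09, adjusted p = 0.000438). In the list of the intercalated disc and costamere 4 of 22 rose and 4 fell, with Sgca, a sarcoglycan, falling by 0.58 (SE 0.09, adjusted p = 0.000656) and Nrap by 0.46 (SE 0.08, adjusted p = 0.00239). Of 18 genes of Ena/VASP and actin turnover 1 rose and 1 fell. Of 10 actins and myosin heavy chains 3 rose, the 3 being Acta2, which is given above, and the non-muscle myosins Myh10 (0.42, SE 0.08, adjusted p = 0.00517) and Myh9 (0.39, SE 0.08, adjusted p = 0.00695). Of 16 SRF, MRTF, TEAD and YAP genes 1 rose, Ajuba, by 0.40 (SE 0.10, adjusted p = 0.0149).

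Cell type markers are read against the same shares. Of 8 cardiomyocyte markers 3 fell and none rose in SHR, and their summed log2 level ran from 20.09 to 20.23 in SHR and from 20.27 to 20.43 in BN-Lx, opposite to the members. Of 10 endothelial markers 6 rose and 1 fell (summed level 16.02 to 16.15 in SHR and 15.96 to 16.02 in BN-Lx), and of 9 smooth muscle and pericyte markers 3 rose (14.72 to 14.78 in SHR and 14.55 to 14.63 in BN-Lx). Acta2, already counted in lists above, is among these 3. Of 8 macrophage markers 1 rose and 4 fell (median log2 fold change -0.29), of 7 atrial markers 1 rose and 3 fell (median -0.43), of 10 fibroblast markers 1 rose and 2 fell, of 7 fast skeletal markers 1 rose and 1 fell, and none of 4 slow skeletal markers passed. Sums overlapped for these 5 lists, and 5 of the 7 fast skeletal markers had a mean level under 5. How far these shifts enter the members' values was not tested.

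The families were compared to ask whether the members differ between strains derived from reciprocal crosses. Across the 21 strains the members ran over different ranges. Xirp2 spanned 1.99 on the log2 scale, or 3.99-fold, between 11.60 in BXH9 and 13.59 in HXB13. Myh7 spanned 1.69, between 14.80 in HXB7 and 16.50 in BXH6, and Acta1 1.46, between 14.73 in HXB3 and 16.18 in BXH12. The spread of these 3 after centring within batch, an SD of 0.47 for Xirp2, 0.47 for Acta1 and 0.48 for Myh7, was above that of 98.0%, 97.9% and 98.1% of the 9376 RefSeq genes with a mean over 8. Ankrd1 (SD 0.30) and Rcan1 (SD 0.29) came next, above 89.7% and 89.2% of these genes, while Fhl1 (SD 0.13) was above only 27.1%.

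Both later libraries of SHR replicate 4 in this table differed by 0.41 for Xirp2, by 0.12 for Acta1 and by 0.06 for Myh7. For Xirp1 they differed by 0.0018. A single pair of libraries gives 1 such value per gene, and with 1 library per strain the order of neighbouring strains was not tested. BXH9 was lowest of all strains for Rcan1, Ankrd1, Xirp2 and Enah, and HXB13 was highest for Ankrd1, Xirp2 and Enah. Their libraries also stood at or near the ends of the library score given below, at 1.15, the highest, for HXB13. BXH9 was at -0.92, where the lowest was -0.99.

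Between the families, 3 of the 10 members were called, while 36.3% of all RefSeq genes were (6940 of 19100, limma with batch as a covariate), a share close to that of the members. Xirp2 ran from 11.87 to 13.59 with a median of 12.50 in HXB and from 11.60 to 12.21 with a median of 11.92 in BXH. Its log2 difference was 0.60 (SE 0.14, adjusted p = 0.00303), and 9 of 12 HXB strains lay above all BXH strains. Acta1 ran from 14.73 to 16.02 with a median of 15.03 in HXB and from 15.46 to 16.18 with a median of 15.73 in BXH, a difference of -0.55 (SE 0.15, adjusted p = 0.00833). In this gene 7 of 12 HXB strains lay below all BXH strains, as the plot of strain levels shows. Myh7b ran from 10.78 to 10.98 with a median of 10.86 in HXB and from 10.42 to 10.90 with a median of 10.71 in BXH, a difference of 0.17 (SE 0.06, adjusted p = 0.0228) that was lost without BXH8 (adjusted p = 0.0580) or BXH9 (0.0596).

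**Figure D3:**
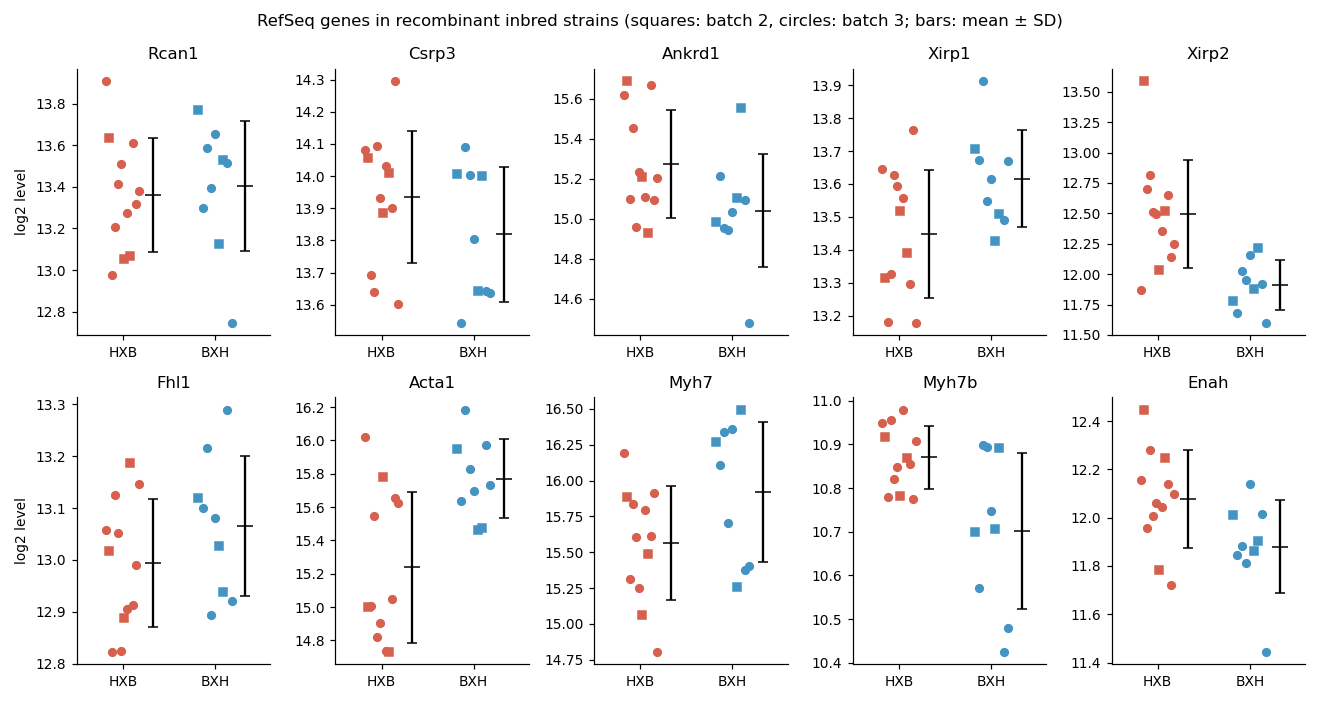
Log2 levels of the 10 members in 12 HXB strains (left of each panel) and 9 BXH strains (right), with a point per strain, squares for batch 2 and circles for batch 3, and a bar for the mean ± SD. Most HXB strains lie above the BXH strains for Xirp2 and below them for Acta1, and in every panel the ranges of the families overlap.

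The other 7 did not pass. Enah had a difference of 0.21 (SE 0.08, adjusted p = 0.0524), Xirp1 of -0.17 (SE 0.07, adjusted p = 0.0693), Ankrd1 of 0.24 (SE 0.11, adjusted p = 0.0960) and Myh7 of -0.36 (SE 0.18, adjusted p = 0.123). Csrp3 (0.12), Fhl1 (-0.07) and Rcan1 (-0.04) had adjusted p of 0.275, 0.353 and 0.812. In the assembled genes Xirp1 (-0.35, adjusted p = 0.00997) and Fhl1 (-0.23, adjusted p = 0.0273) were lower in HXB. Xirp1 also passed without HXB5 (adjusted p = 0.0281), and Csrp3 with quantile normalization (0.0290). Ankrd1 passed with quantile normalization (0.0148), in batch 3 alone (0.0479), without BXH6 (0.0363) and without HXB3 (0.0360). Enah passed with quantile normalization (0.0323), among genes with a mean of 5 or more (0.0436), and without BXH2, BXH8, HXB25 or HXB5 (0.0129 to 0.0432). Within batch 3 alone (15 strains) the difference was 0.53 for Xirp2 and -0.58 for Acta1, and within batch 2 (6 strains), where 0 of all genes passed, it was 0.76 and -0.46.

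The score of the libraries moved with these results. In batch 3 it ran from -0.50 to 0.69 in HXB and from -0.99 to -0.44 in BXH, where HXB5 alone of the HXB strains lay within the range of BXH. In batch 2 it ran from -0.03 to 1.15 in 3 HXB strains and from -0.40 to 0.36 in 3 BXH strains, with overlapping ranges. Across the 21 strains, centred within batch, Pearson's r with the score was 0.82 for Xirp2, 0.67 for Ankrd1, 0.66 for Enah and 0.62 for Myh7b, and -0.72 for Xirp1 and -0.71 for Acta1. It was 0.05 for Rcan1 and 0.04 for Csrp3. With the score as a covariate 0 of 19100 genes passed in limma (0.0%; 1594 had an unadjusted p under 0.05), and the family difference became 0.09 for Xirp2 (adjusted p = 0.913), -0.15 for Acta1 (0.876) and 0.07 for Myh7b (0.835). In batch 3 family and score were nearly aligned, and their parts in these differences were not separated.

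**Figure D4:**
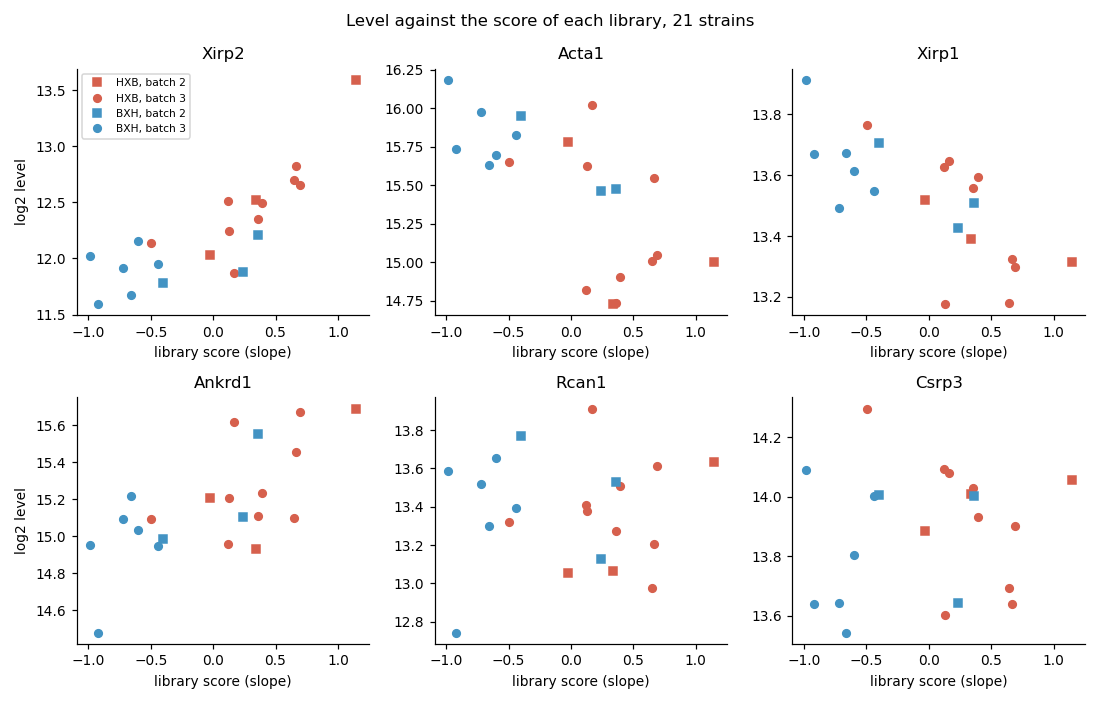
Log2 level of 6 members against the score of each library (the slope of its deviations on the difference between both later libraries of SHR replicate 4), with a point per strain, colours for the families, squares for batch 2 and circles for batch 3. Xirp2 and Ankrd1 rise with the score, Acta1 and Xirp1 fall with it, and Rcan1 and Csrp3 (r = 0.05 and 0.04) show no visible slope.

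In the RefSeq transcripts of the members 3 of 24 were higher and 2 lower in HXB, while 19.0% of all RefSeq transcripts were called, 10.4% higher and 8.63% lower. Both Xirp2 transcripts were higher (0.69, SE 0.18, adjusted p = 0.0115, for the one with the higher level, and 0.47, SE 0.16, adjusted p = 0.0385, for the other), and 1 of 3 Myh7b transcripts was (0.45, SE 0.11, adjusted p = 0.00852). The Acta1 transcript was lower (-0.59, SE 0.17, adjusted p = 0.0193), and so was 1 of 4 Xirp1 transcripts (-0.39, SE 0.08, adjusted p = 0.00415). Rcan1 had 2 RefSeq transcripts, of which the one with the higher level followed the short assembled transcript (rho = 0.91) and the other the long one (rho = 0.97). Their log2 difference averaged 4.27 ± 0.50 in HXB (SD, n = 12) and 4.03 ± 0.37 in BXH (SD, n = 9), a batch-adjusted difference of 0.25 (100000 permutations, p = 0.221). The log2 difference Acta1 minus Actc1 ran from -4.09 to -2.81 with a median of -3.60 in HXB and from -3.44 to -2.98 with a median of -3.18 in BXH. It was lower in HXB (batch-adjusted difference -0.31, permutation p = 0.0558, adjusted p = 0.0857 over the 6 ratios). Myh7 minus Myh6 ran from -5.45 to -4.05 with a median of -4.82 in HXB and from -5.03 to -3.86 with a median of -4.40 in BXH (batch-adjusted difference -0.33, permutation p = 0.105, adjusted p = 0.126). With the score as a covariate, and with no test, the difference between the families was -0.12 for Acta1 minus Actc1, -0.61 for Myh7 minus Myh6 and -0.29 for the Rcan1 transcripts, whose direction thus turned.

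In the partner lists the calls between HXB and BXH are read against the 36.3% of all RefSeq genes called, 18.5% higher and 17.8% lower. They are also read against the score, with which none passed. None of the 22 natriuretic and fetal program partners rose and 4 fell, Nkx2-5 by 0.47 and Des by 0.37. In the calcineurin and NFAT list 9 of 28 rose and 5 fell, with Mef2a higher by 0.33 and Hdac9 by 0.32. Of 14 LIM and FHL genes 1 rose and 8 fell, and of 10 genes in the ankyrin repeat and titin list 1 rose, Ttn by 0.53, and 1 fell. The Z-disc list had 3 of 18 higher, among them Nexn (0.72), and 3 lower, among them Cryab (-0.50). In the list of the intercalated disc 7 of 24 rose and 2 fell, in that of actin turnover 6 of 20 rose and 5 fell, in that of actins and myosins 2 of 11 rose and 3 fell, and in that of SRF, MRTF, TEAD and YAP 1 of 17 rose and 1 fell. Of the cardiomyocyte markers 1 of 12 rose and 7 fell (summed log2 level 21.36 to 21.86 in HXB and 21.56 to 21.97 in BXH), and of 9 macrophage markers none rose and 5 fell (13.15 to 13.70 in HXB and 13.49 to 13.85 in BXH). Of 10 endothelial markers 3 rose and 2 fell, and of 10 smooth muscle and pericyte markers 3 rose and 1 fell. Of 10 fibroblast markers 1 rose and none fell, and none of 8 atrial markers passed. Of 9 fast and 4 slow skeletal markers none rose and 1 fell in each list. The part of these shifts in the members' values was not tested.

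Relations between members were measured over the 21 strains after centring within batch, for 45 pairs. Of these, 2 passed in both Pearson's r and Spearman's rho after Benjamini-Hochberg adjustment. Xirp2 rose with Enah (r = 0.72, permutation p = 0.00026, adjusted p = 0.0117, and rho = 0.66, p = 0.00172, adjusted p = 0.0387), with r = 0.57 without the 2 strains farthest from the median of Xirp2, 0.63 in batch 3 and 0.87 in batch 2. Xirp2 fell as Acta1 rose (r = -0.66, permutation p = 0.00079, adjusted p = 0.0178, and rho = -0.72, p = 0.0003, adjusted p = 0.0135), with r = -0.78 without the 2 farthest strains, -0.67 in batch 3 and -0.70 in batch 2. Within the families the relation of Xirp2 with Acta1 was r = -0.52 in HXB and 0.05 in BXH, and that with Enah 0.66 in HXB and 0.60 in BXH. Ankrd1 with Enah passed in r only (r = 0.62, permutation test, adjusted p = 0.0393, and rho = 0.49, adjusted p = 0.138). With the score regressed out of each member, r was 0.42 for Xirp2 with Enah (adjusted p = 0.189), -0.19 for Xirp2 with Acta1 (adjusted p = 0.642) and 0.33 for Ankrd1 with Enah (adjusted p = 0.331). In the same setting Rcan1 had r = 0.69 with Ankrd1 (0.55 with the score left in), 0.63 with Enah (0.51) and 0.59 with Myh7 (0.57), and Csrp3 had r = 0.72 with Xirp1 (0.47). Fhl1 had r = 0.78 with Enah (0.29 with the score left in). These 5 pairs passed in both measures, with adjusted p for r of 0.00885, 0.0212, 0.0309, 0.00472 and 0.00225 in the order given. Another 3 passed in r only, Ankrd1 with Acta1 (r = 0.64, against -0.13 with the score left in), Csrp3 with Myh7b (0.61, against 0.50) and Xirp1 with Myh7 (0.58, against 0.56). In the assembled genes, where Enah is a fragment, r with the score left in was 0.11 for Xirp2 with Enah and -0.60 for Xirp2 with Acta1.

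**Figure D5:**
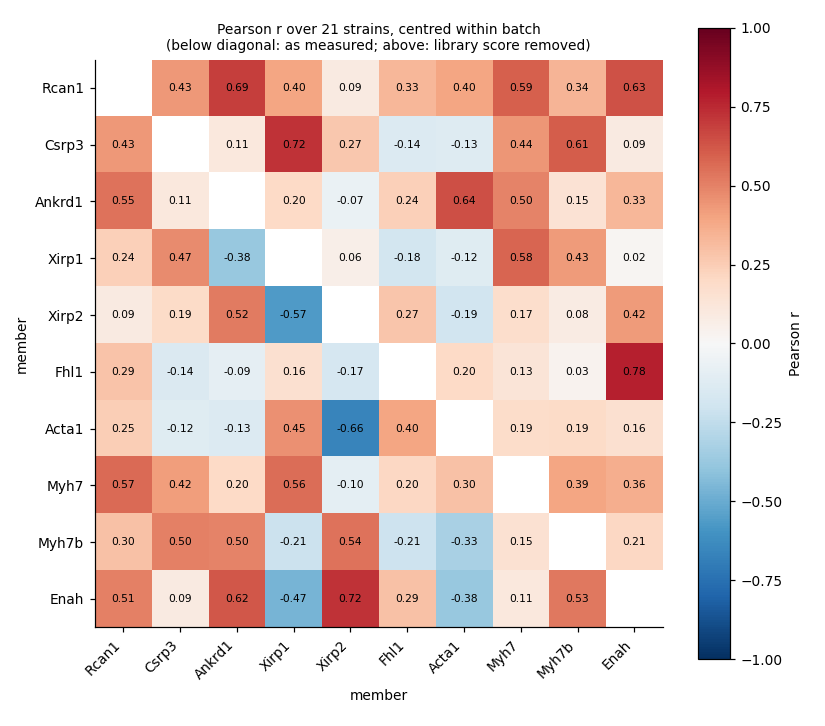
Pearson r between members over 21 strains after centring within batch, as measured below the diagonal and with the library score regressed out above it, on a colour scale from -1 to 1. The strongest values below the diagonal, 0.72 for Xirp2 with Enah and -0.66 for Xirp2 with Acta1, become 0.42 and -0.19 above it.

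The genes most like each member were sought among the RefSeq genes with a mean over 8, by Pearson's r over the 21 strains after centring within batch, and no test was made. Ankrd1 was closest to Tgfb2 (r = 0.90), Camk2d (0.87) and Mfap3 (0.81), whose own r with the score was 0.57, 0.85 and 0.85. For Rcan1 these were Rnd1 (0.69), Dusp8 (0.67) and Dusp3 (0.66), for Myh7 Tnfrsf12a (0.66), Prkcd (0.63) and St3gal4 (0.62), and for Csrp3 mt-Rnr1 (0.86), Elp5 (0.86) and Ifngr1 (0.84). Xirp2 was closest to Zfp62 (0.94), Atrx (0.94) and Upf2 (0.93), whose own r with the score was 0.88, 0.91 and 0.82. Acta1 was closest to Mtfp1 (0.85), Itpa (0.84) and Ptgr1 (0.83), and Xirp1 to Gtf3c1 (0.91), Dlgap4 (0.91) and Xab2 (0.90), and the r of these 6 with the score lay between -0.89 and -0.68. Enah was closest to Arhgef6 (0.88), Fhl1 to Emg1 (0.83) and Myh7b to Pard3b (0.81), whose own r with the score was 0.69, -0.50 and 0.74.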

How the data were processed

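The values deposited by the authors are log2 expression levels of rRNA-depleted, strand-specific total RNA. According to the submitters' processing notes the tools were RSEM 1.3.1, StringTie 1.3.5, HISAT2 2.1.0, Bowtie2 2.3.4.3, cutadapt 1.9.1 and DESeq2 (no version), on the rn7 build, with no roles given. The transformation is not given in the sources used here and no counts were used, which leaves the depth unknown and allows no counting intervals.

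A member was represented in the assembled table by the gene with its name alone and the highest mean. SHR was set against BN-Lx over the 8 batch 1 libraries, and HXB against BXH over 21 strains with batch as a covariate, with limma 3.58.1 in R 4.3.3 (lmFit, eBayes with an intensity trend), two-sided, over all features, with a threshold of 0.05. Nothing in the labels tells whether animals were littermates, and p-values cover only the spread between these samples. Column names do not tell the later libraries of SHR replicate 4 apart, and these served only for the technical difference, the score and 1 alternative. Ratios and relations used exact or 100000-fold permutation tests in scipy 1.17.1 (Python 3.11.15). The fits were tested on simulated data.

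Every member was named, and of each of the other 17 lists the called genes with the smallest p, 2 at most in each comparison; the text gives a selection. Members and lists were chosen with earlier results of these data known. Alternatives covered normalization, centring, trend, low values, left-out libraries, batch and annotation, and the score, batch 2, the earlier Ensembl release and the transcript ratios were added after seeing the data. RefSeq sequences are from the GRCr8 build and give no coordinates for the rn7 files. No column of the tables used was without a sample or group.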

Additional observations from a re-analysis of the deposited data

Results flagged for a closer look

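A library that stood apart from the rest of its group was sought in 39 groups of 4 to 9 samples, where chance alone gives about 1 in 20. There were 4 such values. Acta1 was 15.04 in SHR replicate 3, against 15.67 in the nearest SHR library, and this replicate also had the highest score of the 8 libraries (0.31). The assembled gene at the Myh7 and Myh6 locus was 20.19 in SHR replicate 2, against 20.39 in the nearest. The log2 difference between the short and the long Rcan1 transcript was 5.002 in SHR replicate 2, against 4.56 in the nearest. RefSeq Enah was 11.44 in BXH9, against 11.81 in the nearest BXH strain. Without SHR replicate 3 the log2 fold change of Acta1 stayed past the threshold.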

How the results depend on the processing

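The count of called members between SHR and BN-Lx was 6 and ran from 4 to 6 over its alternatives, 4 to 6 also with each replicate left out. The member transcripts called there were 8, against 2 without an intensity trend, 3 with a replicate block and 3 to 6 with each replicate left out. Same-numbered SHR and BN-Lx libraries correlated in their deviations between -0.38 and 0.19, and 1 of 4 matched its own number best, so the numbers were not taken as pairs. With the replicate block 5 members were called at the gene level, Xirp1 being lost (adjusted p = 0.0595). Between HXB and BXH the 3 called members became 6 with quantile normalization, 0 in batch 2 only, 0 with the score and 2 to 5 with each strain left out, and the 5 transcripts became 0 with the score. In batch 2 only and with the score 0 of all genes passed as well. Calls over all genes with quantile normalization and with each strain left out are not given here. The 6 and the 2 to 5 thus have no share beside them, and neither do the 2 transcripts without an intensity trend. Calls over all genes between the progenitors were 4377 without SHR replicate 4 and 3916 with all groups in 1 fit. Transcript calls over all were 1893 with the replicate block and as low as 3018 with 1 library left out. The 2 pairs of related members were 1 with values not centred, 0 in batch 3 only, 8 in assembled genes and 5 with the score removed. In assembled genes Enah is a fragment and the gene named Myh7 covers Myh6, so pairs with these names are not the same relations there. Acta1 minus Actc1 between HXB and BXH was -0.33 in assembled genes, with an unadjusted permutation p of 0.0471 against 0.0558 in RefSeq genes. With the score as a covariate the difference between the Rcan1 RefSeq transcripts turned to -0.29, and the cause was not tested. With 1 library left out, the difference Acta1 minus Actc1 ran from 0.69 to 0.94 and that between the Rcan1 transcripts from 0.83 to 1.10, where 0.0571 is the smallest p the exact test allows.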
